A study of Saccharomyces cerevisiae with 22 samples.

Results

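BTN2 (YGR142W) and CUR1 (YPR158W) are 2 of the 5449 genes of budding yeast measured with a probe set of their own in an array study of repeated stress. They were chosen by their annotated symbols and selected on measured values, namely their log2 ratios to untreated cells over all groups and times and their primed against naive peroxide differences on these arrays. Those values are therefore given as a description, with no test. Each gene has 1 probe set.

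Btn2 is a sequestrase, a protein that gathers misfolded proteins into deposits so that chaperones can later refold them or hand them over for destruction. It works beside the small heat shock protein Hsp42, and the Hsp70 chaperones with their Hsp40 partners and the Hsp104 disaggregase dissolve the deposits again. Cur1 is the paralog of Btn2 and acts on where the Hsp40 Sis1 is found in the cell, and extra copies of either protein cure yeast of the [URE3] prion, an amyloid form of Ure2. Both genes are known targets of the heat shock factor Hsf1, and Btn2 has also been linked to retrieval of membrane proteins from endosomes to the Golgi.

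The strain was labelled 4741, and the cells were grown in rich medium (YPD) at 30 °C. Total RNA of whole cultures was hybridised to 22 Affymetrix arrays in 8 groups. There were 2 untreated arrays, 2 arrays of heat at 40 °C and 2 of osmotic stress in 0.8 M KCl (30 and 45 min each), and 4 of 0.66 mM hydrogen peroxide (15, 30, 45 and 90 min). The other 12 arrays followed cells that had first been in heat, or in KCl, for 45 min. They went on either to peroxide at the same dose (15, 30, 45 and 90 min) or to rich medium (15 and 45 min). The labels do not give the temperature after the shift from heat, so "after heat" means only after the labelled change of condition. Cells that met peroxide first are named naive here, and those that met it second are named heat-primed or osmotic-primed. With 1 array for each stress at each time, nothing but untreated cells was repeated, and SDs within other groups are spreads over times.

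The median log2 value of an array was 10.16 to 10.22, and the untreated pair differed with an SD of 0.142. Background, taken as the level under which 95% of the probe sets of genes absent from the yeast table lie, was 4.62. The mating type a genes STE2, MFA1, MFA2, BAR1 and AGA2 were at 9.44 to 13.5 on all 22 arrays. Of the alpha genes, MF(ALPHA)1 was above background on 0 arrays, while STE3, MF(ALPHA)2 and SAG1 were at 4.95 to 8.84. URA3 was above background on 0 arrays, LEU2 on 3, MET17 on 5 and HIS3 on 22. The difference between the probe sets at both ends of ACT1, a measure of RNA integrity, was between 0.358 and 0.678.

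Both genes stood at many times their untreated level in heat and in KCl, stood above it by less in naive peroxide, and were below it 15 min after the shift from heat. The BTN2 level in untreated cells was 9.35 and 9.44 on the log2 scale. It was 13.36 after 30 min and 12.87 after 45 min of heat, and 12.80 and 11.72 at the same times in KCl. Every stressed array was far above both untreated ones, and in both stresses the later array was the lower. Relative to the untreated mean, BTN2 was 15.7-fold and 11.2-fold higher in heat and 10.6-fold and 5.02-fold higher in KCl. It ranked 46 and 38 from the highest of 5449 genes in heat, and 103 and 265 in KCl.

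The CUR1 level was 8.10 and 8.11 in untreated cells. It was 10.89 and 10.53 after 30 and 45 min of heat, and 10.97 and 10.59 in KCl. The heat and KCl arrays of CUR1 lay side by side, and in each stress the later array was again the lower. CUR1 was 6.87-fold and 5.39-fold higher than untreated in heat and 7.29-fold and 5.59-fold higher in KCl, at ranks 133 and 121 in heat and 164 and 233 in KCl. Of all genes, 15.7% and 11.2% were at least 2-fold higher at 30 and 45 min of heat, and 16.8% and 17.3% in KCl. In RNA from whole cultures, a change in RNA per cell and a change in the share of cells that express a gene cannot be told apart, and these normalised levels are relative to all other transcripts.

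In naive peroxide both genes were above untreated by less than in heat or KCl, and were highest at 45 min. BTN2 stood at 10.55, 10.57, 11.15 and 10.06 at 15, 30, 45 and 90 min. These are log2 ratios to untreated of 1.16, 1.18, 1.75 and 0.66. CUR1 stood at 8.72, 9.12, 9.28 and 8.99, with ratios of 0.61, 1.01, 1.17 and 0.88. All 4 arrays were above both untreated arrays for both genes, as they were for 17.2% of all genes. BTN2 was at least 2-fold up at 15, 30 and 45 min, when 3.29%, 8.18% and 6.46% of genes were, and CUR1 at 30 and 45 min.

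**Figure D1:**
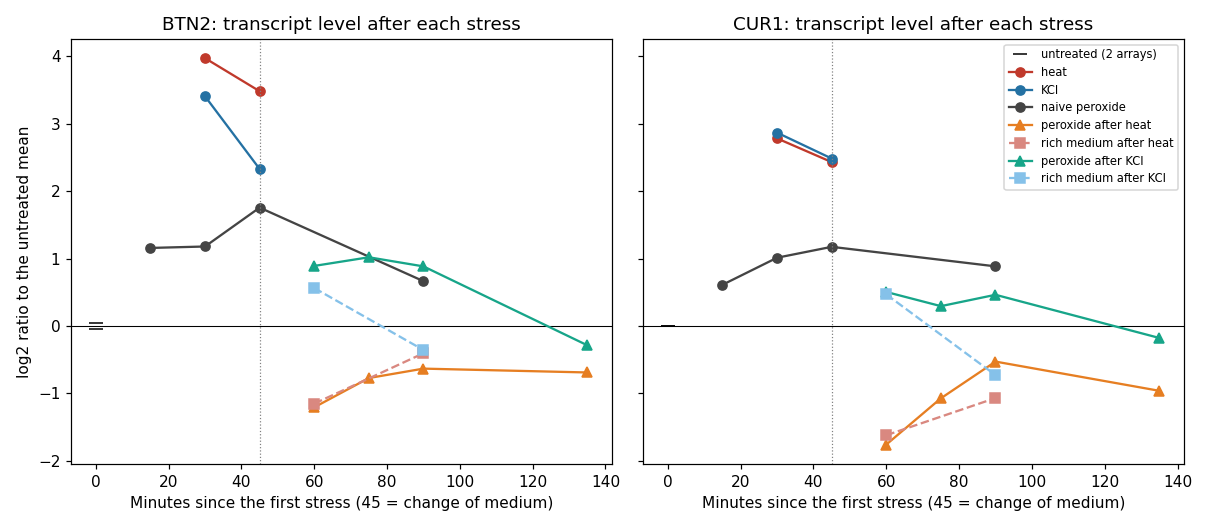
Log2 ratio of BTN2 (left) and CUR1 (right) to the untreated mean, against minutes since the first stress began. Each point is 1 array, and the dotted line marks the change of medium at 45 min for primed cells. In heat and KCl the BTN2 ratios run from 2.33 to 3.97, and after heat every array of both genes lies below 0.

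Ordered by group mean, BTN2 ran from heat (log2 ratio 3.72 ± 0.35, SD, n = 2 times) through KCl (2.87 ± 0.76, n = 2), naive peroxide (1.19 ± 0.45, n = 4), osmotic-primed peroxide (0.63 ± 0.61, n = 4) and rich medium after KCl (0.10 ± 0.65, n = 2) to untreated cells. Below them came rich medium after heat (-0.78 ± 0.53, n = 2) and heat-primed peroxide (-0.82 ± 0.26, n = 4). Neighbouring groups overlapped from naive peroxide down to untreated cells, and so did both groups after heat. CUR1 ran from KCl (2.67 ± 0.27, n = 2) and heat (2.605 ± 0.249, n = 2), which overlapped, to naive peroxide (0.92 ± 0.24, n = 4) and osmotic-primed peroxide (0.27 ± 0.31, n = 4). Untreated cells, rich medium after KCl (-0.13 ± 0.85, n = 2), heat-primed peroxide (-1.08 ± 0.51, n = 4) and rich medium after heat (-1.34 ± 0.39, n = 2) followed, and all neighbours in that lower stretch overlapped.

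Heat was also set directly against KCl. Both sides were among the values used to choose the genes, so the differences are a description, with no test. BTN2 was higher in heat than in KCl by 0.57 at 30 min and 1.15 at 45 min on the log2 scale. Its 2 heat arrays lay above its 2 KCl arrays, as they did for 32.3% of all genes, and at 45 min the gap exceeded 2-fold, as for 7.65% of genes. The mean difference was 0.86 ± 0.42 (SD, n = 2 times), or 1.81-fold. CUR1 differed by -0.08 and -0.05 at the 2 times. With 1 array left out the mean BTN2 difference ranged from 0.32 to 1.40, the highest without the 30 min KCl array.

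Between 45 min of heat and 15 min after it, the drop of both genes was among the largest of all genes. The BTN2 level went from 12.87 at 45 min of heat to 8.24 after 15 min in rich medium and to 8.19 after 15 min in peroxide. CUR1 went from 10.53 to 6.49 in rich medium and to 6.35 in peroxide. Both media thus gave nearly the same level at 15 min, below both untreated arrays. In rich medium this was a fall of 24.8-fold for BTN2 and 16.5-fold for CUR1, the 3rd and 6th largest of 5449 genes. In peroxide it was 25.7-fold and 18.2-fold, the 4th and 6th largest. Spread evenly over the 15 min, a 2-fold drop would take 3.24 min for BTN2 and 3.71 min for CUR1 in rich medium. Genes at least 2-fold lower at 15 min than at 45 min of heat made up 10.1% in rich medium and 11.5% in peroxide.

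After KCl the same step was smaller. BTN2 went from 11.72 to 9.95 in rich medium and 10.28 in peroxide, a fall of 3.40-fold and 2.71-fold (ranks 216 and 302). CUR1 went from 10.59 to 8.57 and 8.61, a fall of 4.04-fold and 3.94-fold (ranks 157 and 119). Both genes were then still above the untreated level. Genes at least 2-fold lower made up 13.3% and 11.5% of all. The fall after heat was not tested against the fall after KCl.

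Genes at least 4-fold above untreated after 45 min of heat numbered 182, a set that holds both BTN2 and CUR1 and was formed after the values were seen. Their median log2 ratio went from 2.62 to 0.85 after 15 min in rich medium, when 26 of them (14.3%) were below the untreated mean and 3 (1.65%) were at least 2-fold below it. The 3 were BTN2, CUR1 and the polyamine transporter gene TPO4. In peroxide 31 (17.03%) were below untreated, and the 2 at least 2-fold below were BTN2 and CUR1. Of the 335 genes at least 4-fold up after 45 min of KCl, 28 (8.36%) were below untreated after 15 min in rich medium and 20 (5.97%) in peroxide. BTN2 and CUR1 were not among these.

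**Figure D2:**
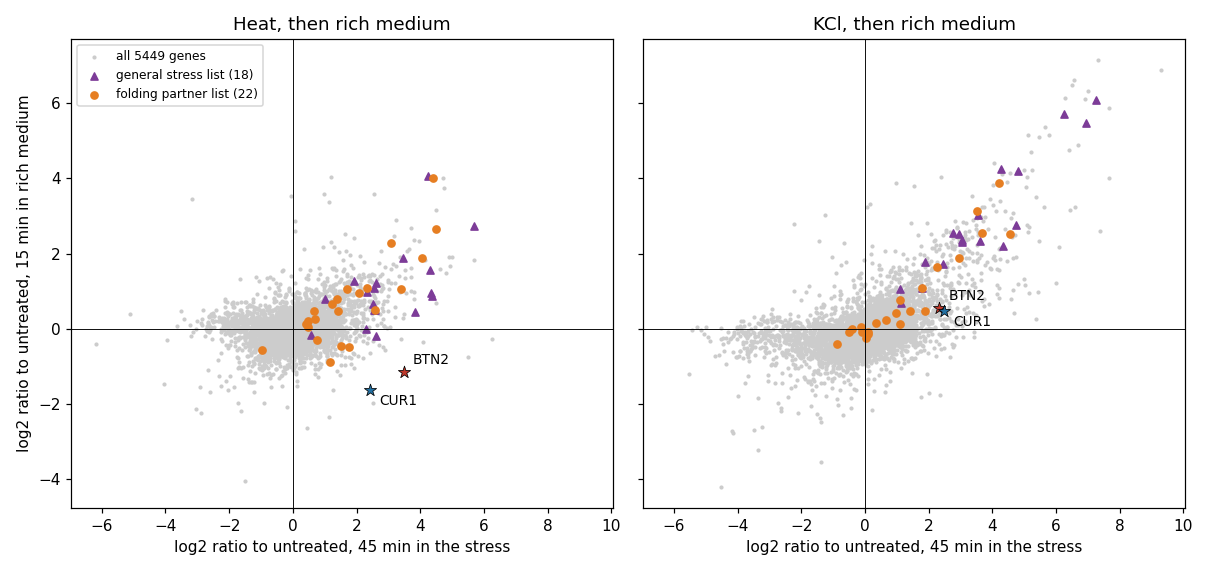
Log2 ratio to untreated after 15 min in rich medium (vertical) against the ratio after 45 min of heat (left) or KCl (right), 1 array on each axis. Grey points are all 5449 genes, orange points 22 folding partner genes, purple triangles 18 general stress genes, and stars BTN2 and CUR1. After heat both stars lie at -1.15 and -1.62 on the vertical axis, below the partner genes, and after KCl at 0.56 and 0.47.

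The low level after heat lasted through the series, with or without peroxide. Heat-primed BTN2 levels at 15, 30, 45 and 90 min were 8.19, 8.62, 8.76 and 8.70, and levels in rich medium at 15 and 45 min were 8.24 and 8.99. Their ratios to untreated were -1.20, -0.77, -0.63 and -0.69 in peroxide and -1.15 and -0.40 in rich medium. Heat-primed CUR1 levels were 6.35, 7.03, 7.58 and 7.15, and those in rich medium 6.49 and 7.04. Their ratios were -1.76, -1.07, -0.53 and -0.96 in peroxide and -1.62 and -1.07 in rich medium. All 6 arrays after heat were below both untreated arrays for both genes, which 7.95% of genes showed. At 15 min in peroxide both genes were at least 2-fold below untreated, when 2.83% of genes were, and CUR1 ranked 31 and BTN2 95 from the lowest. At 30 min CUR1 alone of the pair was, with 2.02% of genes. In rich medium both were at 15 min (1.47% of genes) and CUR1 also at 45 min (0.734%). Levels below untreated were seen late after KCl too. At 45 min in rich medium after KCl the ratios were -0.36 for BTN2 and -0.73 for CUR1. At 90 min of osmotic-primed peroxide they were -0.29 and -0.18.

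The study also asks how an earlier stress alters the response to peroxide. Set against naive peroxide at the same time, heat-primed BTN2 differed by -2.36, -1.95, -2.39 and -1.35 on the log2 scale at 15, 30, 45 and 90 min. Heat-primed CUR1 differed by -2.37, -2.08, -1.70 and -1.84. The mean differences were -2.01 ± 0.48 for BTN2, or 4.04-fold lower, and -1.999 ± 0.292 for CUR1, or 3.998-fold lower (SD over n = 4 times). All 4 heat-primed arrays were below all 4 naive arrays for both genes and for 3.95% of all genes. BTN2 ranked 9, 41, 10 and 32 from the lowest difference, and CUR1 ranked 8, 33, 36 and 10. At the 4 times 2.18%, 4.33%, 2.68% and 1.41% of genes were at least 2-fold lower. The heat-primed array at 30 min stood apart in a ribosomal RNA probe set, at 7.46 against at most 5.43 on the others of its series. In rich medium at 15 min this probe set was at 6.32 after heat and 6.64 after KCl. It was at 6.16 and 5.18 in untreated cells and at 6.03 in osmotic-primed peroxide at 30 min. The part of this in the differences between arrays was not tested.

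Osmotic priming shares the naive arrays with that comparison. Osmotic-primed BTN2 levels were 10.28, 10.41, 10.28 and 9.11, and CUR1 levels 8.61, 8.40, 8.57 and 7.93. BTN2 differed from naive peroxide by -0.27, -0.16, -0.87 and -0.95, a mean of -0.56 ± 0.41, and the 2 series overlapped. CUR1 differed by -0.11, -0.72, -0.71 and -1.06, a mean of -0.65 ± 0.40. All 4 osmotic-primed CUR1 arrays lay below all 4 naive ones, as for 2.95% of all genes. Only CUR1 at 90 min was at least 2-fold lower, when 0.954% of genes were. From the lowest difference to naive peroxide, BTN2 ranked 1275, 1886, 106 and 67 of 5449 genes, and CUR1 ranked 2155, 322, 181 and 44. Heat-primed levels were below osmotic-primed ones at every time, with differences of -2.10, -1.79, -1.52 and -0.40 for BTN2 and -2.26, -1.37, -0.99 and -0.78 for CUR1. From the lowest of 5449 genes, BTN2 ranked 81, 42, 26 and 203 in these differences and CUR1 66, 74, 63 and 47. The share of genes lower at every time was not counted.

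**Figure D3:**
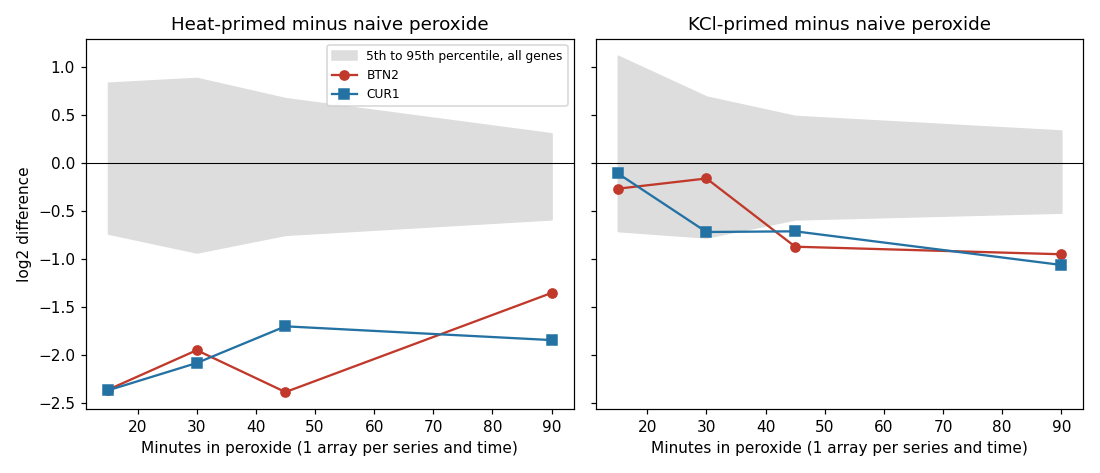
Log2 difference of heat-primed (left) and KCl-primed (right) from naive peroxide at the same time for BTN2 and CUR1, 1 array per series and time. The grey band spans the 5th to the 95th percentile of all 5449 genes. After heat both genes lie below the band throughout, from -2.39 to -1.35, and after KCl they lie between -1.06 and -0.11.

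After heat the peroxide and rich medium arrays of BTN2 lay close together, while after KCl both genes were higher in peroxide at 45 min. At 15 and 45 min BTN2 differed between the media by -0.05 and -0.23 after heat, and CUR1 by -0.14 and 0.54. After KCl the peroxide arrays were higher by 0.33 and 1.24 for BTN2 and by 0.04 and 1.19 for CUR1. In rich medium after KCl BTN2 stood at 9.95 and 9.04 at these times and CUR1 at 8.57 and 7.38, so the later array was the lower for both. At that time 5.01% of all genes were at least 2-fold higher in peroxide than in rich medium after KCl.

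Rich medium after heat was set against rich medium after KCl in the same way, with no test. BTN2 after heat differed by -1.71 at 15 min and -0.05 at 45 min, and CUR1 by -2.09 and -0.34. At 15 min 4.77% of all genes were at least 2-fold lower, as both were. The gap between both recoveries was thus wide at 15 min and narrow at 45 min, and each time has 1 array per group.

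BTN2 and CUR1 moved together. Their log2 ratios had the same sign on 20 of 20 treated arrays, and their correlation across these was r = 0.972 (n = 20 arrays, which share the untreated mean). Among all genes each was the one most like the other. Counting the partner, 22 genes had r of at least 0.9 with BTN2 and 61 with CUR1. These ratios were among the values used to choose the genes, so the likeness is a description, with no test. How often other gene pairs share their sign on all 20 arrays was not counted. The ratio of BTN2 was the higher on 16 of the 20 arrays. The gap was widest in heat, at 1.19 and 1.05, and the 4 arrays with CUR1 ahead were KCl at 45 min (-0.16), naive peroxide at 90 min (-0.22), heat-primed peroxide at 45 min (-0.10) and osmotic-primed peroxide at 90 min (-0.11). Whether RNA of one paralog binds the probe set of the other was not tested.

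After CUR1, the genes most like BTN2 were HRK1 (r = 0.949), a kinase that acts on the plasma membrane proton pump, MDJ1 (0.947), the Hsp40 of mitochondria, HSP78 (0.934), the mitochondrial disaggregase, and APJ1 (0.929), an Hsp40. Those most like CUR1 were UIP3 (0.950), GGA1 (0.949), an adaptor of Golgi transport, SIS1 (0.943), and ACH1 (0.943), a mitochondrial enzyme of acetyl-CoA metabolism. The median r over all genes was 0.123 with BTN2 and 0.113 with CUR1. At 15 min in rich medium after heat HSP78 was still at a log2 ratio of 0.68, MDJ1 at -0.19 and GGA1 at -0.94, all above BTN2 and CUR1. On the chromosome, BTN2 has VPS62 before it and SKN1 after it (1 annotated feature between), and CUR1 has TDA6 and KRE6 (5 between). Across the arrays BTN2 had r = 0.078 with VPS62 and 0.690 with SKN1, and CUR1 had 0.282 with TDA6 and -0.454 with KRE6. TDA6 was at log2 ratios of 1.79 and 1.65 in heat and at -0.13 and -0.20 in KCl, where CUR1 was as high as in heat.

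The proteins that work with Btn2 and Cur1 were followed through a list of 21 chaperone and co-chaperone genes and the coactivator gene MBF1, 22 in all. Values of list genes are log2 differences from the fits with limma standard errors. The fit of the first stresses used 30 and 45 min of heat, KCl and naive peroxide, and so left out peroxide at 15 and 90 min. In heat 21 of the 22 rose and 1 fell, SNL1, a nucleotide exchange factor for Hsp70 (limma, 27.5% of all genes higher and 22.4% lower, list median 1.61 against 0.07 over all genes). The largest rises were SSA4 (4.78 ± 0.28) and HSP26 (4.39 ± 0.26), a stress Hsp70 and a small heat shock protein, then HSP42 (4.34 ± 0.21) and the Hsp110 gene SSE2 (3.72 ± 0.24). At 30 min of heat 18 of the 22 had a smaller ratio than BTN2 and 16 a smaller ratio than CUR1. In KCl 13 rose and 2 fell (30.2% and 26% of all genes, median 0.93 against 0.03), led by HSP42 (4.52 ± 0.21). At 30 and 45 min of peroxide 9 rose and 0 fell (11.2% and 7.18% of all genes, median 0.30 against -0.03), again led by HSP42 (3.32 ± 0.21). HSP42 stood lower at the other times, with ratios of 1.86 at 15 min and 1.52 at 90 min. With all 4 peroxide times in the fit, limma called 0 of the 5449 genes, with 983 at an unadjusted p under 0.05, so each peroxide call in the lists holds for 30 and 45 min only. Between heat and KCl 11 of the 22 were higher in heat and 0 lower (limma, 15.4% and 15.2% of all genes), among them the Hsp90 co-chaperones AHA1 (1.84 ± 0.17) and HCH1 (1.58 ± 0.20).

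In rich medium 15 min after heat 5 of the 22 partner genes were below untreated. They were MBF1 at -0.88, SNL1 at -0.57, the Hsp40 genes SIS1 at -0.48 and APJ1 at -0.44, and the exchange factor gene FES1 at -0.30. All 22 lay above BTN2 and CUR1 on that array, and their median was 0.49. HSP26 was still at 4.01, SSA4 at 2.67, the Hsp90 gene HSP82 at 2.29, HSP42 at 1.89 and HSP104 at 1.09. By 45 min in rich medium 17 of the 22 were below untreated, with a median of -0.44, and 11 lay below BTN2 and 3 below CUR1. After KCl 17 of the 22 were likewise below untreated at 45 min in rich medium, with a median of -0.18. On that array 3 lay below BTN2 and 0 below CUR1. In heat-primed peroxide 0 of the 22 were below either gene at 15 min, 5 were below BTN2 and 7 below CUR1 at 45 min, and 9 and 6 at 90 min. At 90 min SSA1 was at -2.39, HSP82 at -1.99 and SSA2 at -1.91.

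Heat-primed against naive peroxide, 4 of the 22 partner genes were lower and 0 higher (limma, 1.8% and 1.54% of all genes, median -0.51 against -0.01). They were SIS1 (-1.67 ± 0.17, adjusted p = 0.0105), MBF1 (-1.25 ± 0.13, adjusted p = 0.0105), STI1, the adaptor between Hsp70 and Hsp90 (-0.92 ± 0.20, adjusted p = 0.0483), and FES1 (-0.58 ± 0.09, adjusted p = 0.0346). HSP26 was at 1.52 ± 0.68 and HSP104 at -1.41 ± 0.33, neither past the threshold. Leaving out the 30 min arrays took the calls over all genes from 182 to 0, and leaving out the 45 min arrays to 1. Osmotic-primed, 0 of the 22 passed (limma, 0.128% of all genes lower and 0.0184% higher, with 1019 genes at an unadjusted p under 0.05). Between rich medium after heat and after KCl 0 of the 22 passed as well (limma, 0.0367% lower and 0.0184% higher, with 457 genes at an unadjusted p under 0.05).

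**Figure D4:**
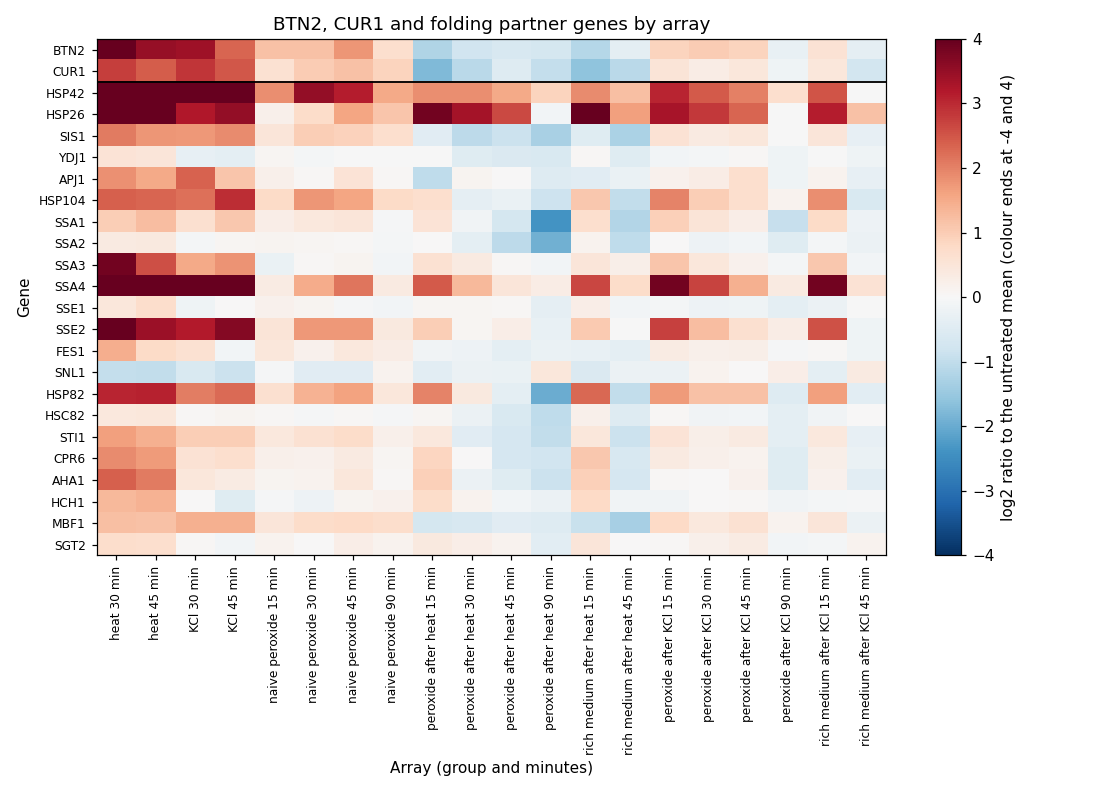
Log2 ratio to untreated of BTN2, CUR1 and the 22 partner genes (vertical) on each of the 20 treated arrays (horizontal), red above and blue below untreated, with colour ending at -4 and 4. SIS1, MBF1 and, more faintly, FES1 share all the blue columns of BTN2 and CUR1 after heat. Of the 22 partner genes, 14 are below untreated at 45 min and 19 at 90 min of heat-primed peroxide. In rich medium after heat 17 are at 45 min, while at 15 min HSP26 is at 4.01 and HSP42 at 1.89.

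A list of 13 ubiquitin enzymes and import factors serves the clearance of misfolded proteins. Of these 6 rose in heat, 6 in KCl and 5 at 30 and 45 min of peroxide, beside 27.5%, 30.2% and 11.2% of all genes, and 0 fell. In the primed comparisons 0 passed, where 1.8% and 0.128% of all genes were lower. The polyubiquitin gene UBI4 led in all 3 stresses (2.84 ± 0.20, 2.62 ± 0.20 and 2.10 ± 0.20). SAN1 and UBR1, ubiquitin ligases for misfolded nuclear and cytosolic proteins, did not pass against untreated in any of the 3 stresses. Between heat and KCl 2 of the 13 were higher in heat and 1 lower, where 15.4% and 15.2% of all genes were. UBR1 was among the higher ones, by 0.91 ± 0.24 (limma, adjusted p = 0.0294).

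Of 9 genes for endosome to Golgi retrieval and membrane partners of Btn2, 8 were measured. Of the 8, 3 rose in heat, 4 in KCl and 1 at 30 and 45 min of peroxide. Beside them 27.5%, 30.2% and 11.2% of all genes rose. In heat-primed against naive peroxide 1 of the 8 was lower, as were 1.8% of all genes. YHC3 (also BTN1, whose loss gave BTN2 its name) rose by 0.68 ± 0.14 in heat and 0.49 ± 0.14 in KCl. The sorting nexin gene VPS17 rose by 1.12 ± 0.21 in heat, 0.91 ± 0.21 in KCl and 0.94 ± 0.21 at 30 and 45 min of peroxide and was lower in heat-primed than naive peroxide (-0.56 ± 0.12, limma, adjusted p = 0.0483). The retromer genes VPS35 in heat and VPS29 and VPS5 in KCl also rose, while YIF1, IST2 and RHB1 did not pass in any comparison.

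Of the 3 prion protein genes 1 was lower in heat and in KCl, where 22.4% and 26% of all genes were. URE2 was at -0.09 ± 0.12 in heat and -0.13 ± 0.12 in KCl and RNQ1 at 0.05 ± 0.13 and -0.18 ± 0.13, none past the threshold. SUP35, the translation termination factor, fell by 0.75 ± 0.18 in heat and 0.77 ± 0.18 in KCl. Among transcripts of stress transcription factors, HSF1 rose by 0.91 ± 0.23 in heat, 0.97 ± 0.23 in KCl and 0.82 ± 0.23 at 30 and 45 min of peroxide, and SKN7 fell in all 3. At 15 and 90 min of peroxide HSF1 was at 0.33 and -0.31. MSN4 and RPN4 rose in heat and KCl, MSN2 in KCl and YAP1 in KCl and at 30 and 45 min of peroxide. Thus 3 of the 6 rose in heat, 5 in KCl and 2 in peroxide, beside 27.5%, 30.2% and 11.2% of all genes. Only SKN7 fell, where 22.4%, 26% and 7.18% of all genes did. In the primed comparisons 0 of the 6 passed, where 1.8% and 0.128% of all genes were lower.

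General stress genes driven by Msn2 and Msn4 were set beside the pair, since they answer many stresses. All 18 rose in heat (median 2.90) and in KCl (3.05), beside 27.5% and 30.2% of all genes. At 30 and 45 min of naive peroxide 16 rose (median 1.96), beside 11.2% of all genes, while the median ratio was 0.62 at 15 min and 0.67 at 90 min. Heat-primed against naive, 0 of 18 passed, where 1.8% of all genes were lower, with a median of -0.97 and 15 negative. In rich medium 15 min after heat their median ratio was 0.91 and 3 of 18 were below untreated, while BTN2 was at -1.15 and CUR1 at -1.62. At 45 min the median was -0.07, 10 of 18 were below untreated, 6 below BTN2 and 2 below CUR1. In rich medium 15 min after KCl their median ratio was 2.44, and 0 of 18 lay below BTN2 (0.56) or CUR1 (0.47). Between rich medium after heat and after KCl 0 of 18 passed (limma, 0.0367% of all genes lower and 0.0184% higher). All 18 were negative there, with a median of -1.31 against 0.06 over all genes. The mean differences of the pair between these media were -0.88 for BTN2 and -1.21 for CUR1. No test set the pair against these genes.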

How the data were processed

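RNA of 22 samples was labelled from poly(T)-primed cDNA, per the labels' protocols. The submitters' processing notes name RMA, and the deposited values are log2 expression of each probe set, on the scale RMA gives. The RMA version and the genome build are not given in the sources used here. The log2 fold changes that the authors deposited for 5900 probe sets served only as an alternative. Of 10928 probe sets, 5498 named 1 gene of the RefSeq table (assembly R64), and the brightest was kept for 47 genes with several, leaving 5449. Probe sets absent from the yeast table (1746), absent from the annotation (3683) or naming several genes (1) were left out of tests.

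Values were used unscaled and unfiltered. Linear models came from limma 3.58.1 under R 4.3.3 (lmFit, then contrasts and eBayes), with p-values adjusted by Benjamini-Hochberg over 5449 genes, with a threshold of 0.05. The fit of untreated cells and first stresses held 8 arrays (heat, KCl and peroxide at 30 and 45 min) and a mean for each group, the peroxide series 12 arrays with group and time, and the media after priming 8 arrays with group and time. In the fit of the first stresses, p-values rest on the spread between the untreated arrays and between 30 and 45 min within each stress. The other fits hold no untreated array, so their p-values rest on how differences between groups varied over times. Separate cultures are not stated for the untreated pair, whose spread may be technical. All p-values cover the spread of these arrays alone. The number of arrays limits the precision.

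The 2 genes and all gene lists were chosen with earlier results of these data known. The plan was to name the pair, the 5 most correlated with each, their neighbours, every member of lists of 8 or fewer and up to 4 of longer lists per comparison. Some genes were named outside this plan. Among them were TPO4, SAN1 and further partner genes in rich medium after heat and in heat-primed against naive peroxide. Alternatives were further quantile normalization, one median, trend and robust variance, the dimmest 25% left out, no time term, the authors' table, and an array or time left out. Chosen after seeing the data were treated arrays left out of the fit of the first stresses, all 4 peroxide times in it, and a time term between heat and KCl.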

Additional observations from a re-analysis of the deposited data

Results flagged for a closer look

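In osmotic-primed peroxide, the lowest BTN2 value was a log2 ratio to untreated of -0.29 at 90 min, far from the other 3 times (0.88 to 1.02). Its gap to the nearest was 0.896 of the whole range. The 4 values are times of 1 series, not repeats, and were among those used to choose the gene, so this is a description with no test.

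Effects of opposite sign against untreated cells were seen for both genes, with every array of one group on one side and every array of the other group on the opposite side. Of all genes, 7.95% had every array after heat below both untreated arrays, and 17.2% had every naive peroxide array above them. The share of genes with both was not counted. The BTN2 mean was -0.82 in heat-primed peroxide and -0.78 in rich medium after heat, against 1.19 in naive peroxide. The CUR1 mean was -1.08 in heat-primed peroxide and -1.34 in rich medium after heat, against 0.92 in naive peroxide. These differences were not tested, since the values were known when the genes were chosen.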

How the results depend on the processing

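Of 138 recomputed group means and primed minus naive means of BTN2 and CUR1, 135 kept their sign and moved by less than the spread over times. With 1 of a group's own arrays or times left out, a mean cannot move by more than that spread. Those settings therefore bear on the sign alone. The 3 that changed sign were in rich medium after KCl: BTN2 became -0.36 without its 15 min array, and CUR1 became 0.47 without its 45 min array and 0.0252 in the authors' deposited table. With 1 array left out, the means there lay between -0.36 and 0.56 for BTN2 and between -0.73 and 0.47 for CUR1. BTN2 in heat against KCl lay between 0.32 and 1.40 with 1 array left out, the highest without the 30 min KCl array. CUR1 there lay between -0.26 and 0.12, changing sign without the 45 min heat array (0.11) and without the 30 min KCl array (0.12). Between rich media the differences with 1 array left out were -1.56 to -0.20 for BTN2 and -2.10 to -0.33 for CUR1. Leaving out 1 array of either group, the number of genes called by limma was 1469 to 2530 in heat (2721 with all), 1976 to 3044 in KCl (3062 with all), 125 to 612 at 30 and 45 min of peroxide (1001 with all), 848 to 1874 between heat and KCl (1668 with all), and 0 to 1 between rich media (3 with all). Leaving out treated arrays against untreated, all 4 peroxide times (0 genes called, 983 at an unadjusted p under 0.05) and a time term between heat and KCl (662 genes called) were chosen after seeing the data. Leaving out 1 time gave 0 to 749 heat-primed calls and 0 to 66 osmotic-primed ones. Heat-primed calls went from 182 to 333 after quantile normalization and to 6 without a time term, osmotic-primed ones from 8 to 2 without a time term, and those between rich media from 3 to 1 with the dimmest 25% of genes left out and to 0 without a time term. The causes were not tested. CUR1 has no value with the dimmest 25% left out. The labels give the arrays no replicate numbers shared across groups, so arrays could be matched by time only. Shared times were a term in the fits of the peroxide series and of the media after priming. The main fit of the first stresses had no such term. The lowest level of the pair was 6.35, for CUR1 at 15 min of heat-primed peroxide, against a background of 4.62. Whether low signal altered the size of its falls was not tested. With 1 array per stress and time, differences at single times have no repeat.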
